A study of Mus musculus with 272 samples.

Results

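Cohesin genes were followed through mouse oocyte maturation and preimplantation development. The group held 10 genes out of 15854 gene symbols in the deposited table, and all 10 were present. They were chosen by name: the meiosis-specific subunits Rec8, Smc1b and Stag3, the subunits used in mitosis Rad21, Smc1a, Smc3, Stag1 and Stag2, the protector Sgo2a and the protease Espl1. Smc3 has no meiotic counterpart and serves in the mitotic and the meiotic ring alike.

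Cohesin is a ring of a pair of SMC proteins closed by a kleisin, with a STAG subunit bound to the kleisin, and it holds sister chromatids together from replication until anaphase. In germ cells REC8 takes the place of the kleisin RAD21, SMC1B that of SMC1A, and STAG3 that of STAG1 or STAG2. Separase, the product of Espl1, cuts the kleisin at anaphase, and shugoshin 2, the product of Sgo2a, shields REC8 at centromeres through the first meiotic division. In mice the meiotic rings are loaded onto chromosomes in the fetal ovary, long before the oocyte grows and ovulates.

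RNA was measured at 8 stages: germinal vesicle (GV) oocyte, metaphase II (MII) oocyte, zygote, 2-cell, 4-cell and 8-cell embryo, morula and blastocyst. At each stage, transcriptomes were sequenced from 4 pools holding 20 oocytes or embryos each (32 libraries), and gradient libraries from 3 sucrose gradients, lettered A to C, each loaded with about 100 oocytes or embryos in the presence of cycloheximide and collected as 10 fractions (240 libraries). No stage carried a treatment or mutation. The mouse strain, the age of the females and the number of animals behind a pool are not given in the sources used here, so p-values measure the spread between these pools and gradients, which may be partly technical.

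Values are CPM, read counts of genes divided by the size of each library. In transcriptomes as in fractions a value is thus a share of the library and not an amount. Amounts per oocyte or embryo were not measured, so a rise in CPM need not mean more transcript. Changes are on the log2(CPM + 1) scale, where changes of low genes come out smaller than they are. Depth was 11.2 to 24.3 M reads per transcriptome and 0.0102 to 43.2 M per fraction. A change was called at an adjusted p under 0.05 and a log2 change of at least 1 in size. The share of reads on 18S ribosomal RNA rose from 0.0143% ± 0.0018 (SD, n = 4) in GV transcriptomes to 6.95% ± 3.14 in blastocyst transcriptomes, and no transcriptome call was lost when CPM were rescaled without it. Markers of the oocyte, the 2-cell embryo and the blastocyst followed the labels. The 8 oocyte genes summed to 20500 to 23120 CPM in GV and to 98.8 to 154.8 CPM in blastocyst transcriptomes. The 5 genes of the 2-cell embryo peaked at 2061 to 2859 CPM in 2-cell libraries, and 7 blastocyst genes reached 2349 to 2860 CPM in blastocysts. Of 5 sperm markers 2 were listed, and their sum was highest in GV (15.1 to 19.5 CPM, zygotes 4.72 to 8.82 CPM). Of 3 markers of male germ cells 2 were listed, at 70.3 to 87.7 CPM in GV and 103.9 to 167.7 CPM in MII. The source of these reads was not tested. Of 10 cumulus and granulosa markers 4 were listed, summing to 40.1 to 75.5 CPM in GV, MII and zygote transcriptomes, most of it Cyp19a1, and their part in the results was not tested. In pools of whole embryos, fewer cells of a type and less RNA per cell cannot be told apart.

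The promoters of the 3 meiosis-specific genes are shown because the genes share a germline role while their transcripts took different courses here. RefSeq promoter windows (GRCm38.p6, another build than the one the reads were mapped to) were found for 8 of the 10 members. Each line runs 5′ to 3′ on the gene's strand and ends 30 bases after the annotated start. Capitals mark the E2F core TCCCGC, or in Stag3 also the E-box CACGTG.
Rec8, chr14:55617916-55618195, plus strand: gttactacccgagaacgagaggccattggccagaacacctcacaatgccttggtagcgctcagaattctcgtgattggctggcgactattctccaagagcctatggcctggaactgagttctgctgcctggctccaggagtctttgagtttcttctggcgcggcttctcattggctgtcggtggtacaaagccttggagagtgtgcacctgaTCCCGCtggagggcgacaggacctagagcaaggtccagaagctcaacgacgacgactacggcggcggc
Smc1b, chr15:85131928-85132207, minus strand: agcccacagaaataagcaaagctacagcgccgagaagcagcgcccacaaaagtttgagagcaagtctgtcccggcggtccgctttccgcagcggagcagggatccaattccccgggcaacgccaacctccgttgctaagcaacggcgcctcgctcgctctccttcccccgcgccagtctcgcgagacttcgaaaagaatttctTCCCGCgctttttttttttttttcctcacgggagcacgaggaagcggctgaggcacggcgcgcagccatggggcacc
Stag3, chr5:138280259-138280538, plus strand: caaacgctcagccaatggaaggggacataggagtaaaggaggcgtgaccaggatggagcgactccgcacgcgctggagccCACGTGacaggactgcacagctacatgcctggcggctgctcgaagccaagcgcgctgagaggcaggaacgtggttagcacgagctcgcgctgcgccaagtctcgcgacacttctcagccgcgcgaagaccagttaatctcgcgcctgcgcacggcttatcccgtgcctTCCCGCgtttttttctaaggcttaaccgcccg
The E2F core, whose reverse complement is GCGGGA, begins at -38 from the start in Rec8, -47 in Smc1b and -2 in Stag3, and the E-box of Stag3 at -170. Smc1b and Stag3 are known targets of the repressor E2F6 outside the germline. Searched on either strand over 300 bases around the start, TCCCGC occurred in 7 of the 8 members matched and CACGTG, its own reverse complement, in 2, Stag3 and Espl1. Of all 32851 RefSeq windows of that length, 20.0% held TCCCGC and 7.15% held CACGTG. The letters are a description of the windows, and Smc1a, Smc3, Stag1 and Sgo2a carried TCCCGC as well.

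In the transcriptomes, 6 of the 16 member calls over the 7 transitions fell between the 2-cell and the 4-cell stage (37.5%), a step that held 35.1% of the calls over all genes. Calls are those of limma unless another tool is named. From GV to MII, Rad21, Smc3 and Espl1 rose (3 of 10 members higher, against 9.11% of 14642 genes tested, and 6 of 10 in edgeR and in DESeq2, which added Stag2, Sgo2a and Stag1) and none of the 10 fell in any of the 3 tools (25.3%). From MII to zygote no member passed the test in limma (10.3% of genes in either direction) and none in edgeR or DESeq2, while 4 were under 0.05 by unadjusted p in limma. From zygote to 2-cell Stag3 rose (1 of 10, 25.2% of genes) and Smc3 and Sgo2a fell (2 of 10, 8.71%), to which edgeR and DESeq2 added a rise of Rec8 and a fall of Smc1a. From 2-cell to 4-cell Rad21, Smc1a, Smc3, Stag2 and Espl1 rose (5 of 10, 31.8%) and Smc1b fell (1 of 10, 32.9%), while edgeR and DESeq2 also called a fall of Stag1, and DESeq2 did not call Rad21. From 4-cell to 8-cell none passed in limma (2.60% in either direction) and none in edgeR or DESeq2, while 2 were under 0.05 by unadjusted p in limma. From 8-cell to morula Stag3 rose (1 of 10, 8.18%), and Rec8 too in edgeR and DESeq2. From morula to blastocyst Rec8 rose (1 of 10, 18.8%) while Smc1b and Stag2 fell (2 of 10, 7.97%), and Rad21 fell as well in edgeR and DESeq2. Over the 7 transitions together 11 of 70 member tests were higher (14.2% of all gene tests) and 5 lower (12.2%). The median change of the members exceeded that of all genes most at GV to MII (0.77 against -0.11) and at 2-cell to 4-cell (1.06 against 0.02).

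**Figure D1:**
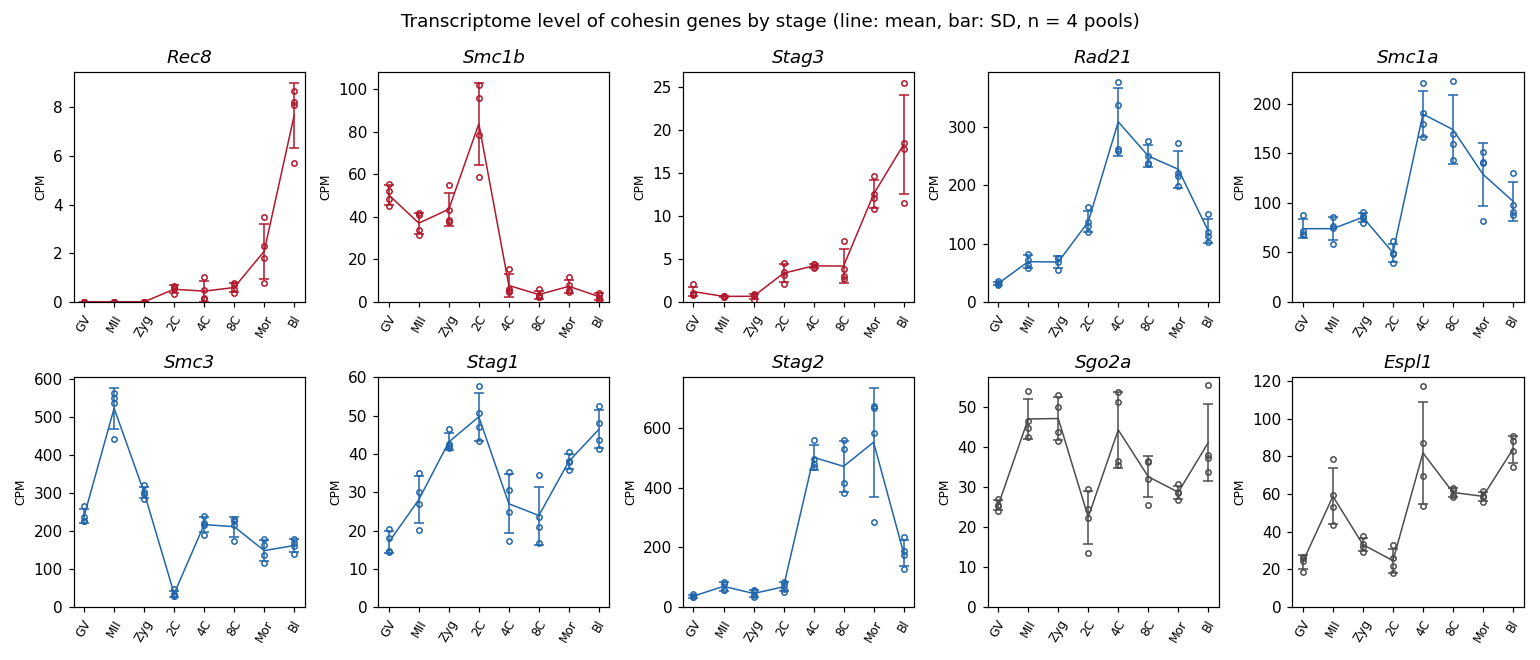
CPM of each cohesin gene (y axis) in the transcriptome libraries by stage (x axis; Zyg zygote, Mor morula, Bl blastocyst), each panel on its own scale from 0; circles are libraries, lines join means and bars are SD (n = 4), red meiosis-specific, blue mitotic, grey protector and separase. Rec8 is at 0 up to the zygote, Smc1b drops between the 2-cell and 4-cell stages, and Smc3 dips at the 2-cell stage.

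Rec8, the meiotic kleisin, had no read in any transcriptome before the 2-cell stage. It was listed at 0 in each of the 12 GV, MII and zygote transcriptomes, which together held 208 M reads. A count of 0 allows up to 3 reads, 0.131 to 0.227 CPM per library. Among all 102 libraries of these 3 stages, fractions included, Rec8 had 2 reads, in a single GV fraction. Among all symbols, 426 had no read in any of the 12 transcriptomes, and 251 of those reached at least 1 CPM in blastocysts. Whether reads of such genes are missing from the table at these stages for a technical reason was not tested, so the 0 is a listed value and not evidence that the transcript is absent.

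Rec8 reads appeared at low level from the 2-cell stage. The values were 0.513, 0.307, 0.592 and 0.663 CPM in 2-cell, 1.03, 0.137, 0.482 and 0.101 in 4-cell, and 0.775, 0.541, 0.345 and 0.693 in 8-cell transcriptomes. These 3 stages overlapped. Morula libraries held 2.28, 3.49, 1.79 and 0.770 CPM and blastocyst libraries 8.10, 5.71, 8.67 and 8.24 CPM, with no overlap between them. The steps from zygote to 2-cell and from 8-cell to morula were not called in limma but were with a pseudocount of 0.1, in edgeR and in DESeq2 (8-cell to morula 1.71 in edgeR, adjusted p = 0.0465, and 1.66 in DESeq2, adjusted p = 0.0311). The rise from morula to blastocyst was 1.56 ± 0.20 (SE, adjusted p = 6.9e-08, limma). The blastocyst mean of Rec8 was 33.8-fold the highest of the early floors of 3 reads per library. Since the early 0 is not evidence of absence, that is no lower bound on its change.

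Smc1b, the meiotic SMC subunit, was the most abundant of the 3 meiotic members per length in the GV oocyte and fell sharply after the 2-cell stage. GV transcriptomes held 55.5, 48.3, 52.0 and 45.1 CPM and MII 31.6, 40.8, 33.9 and 41.6 CPM. Zygotes held 38.5, 37.7, 54.7 and 43.1 CPM. The 2-cell libraries, at 58.8, 78.6, 95.6 and 102 CPM, lay above every earlier one, though neither that rise (0.91 ± 0.31, adjusted p = 0.012, limma) nor the earlier changes reached the size set for a call in limma. Without 2-cell library E or the libraries lettered C that rise was 1.07 or 1.03 and did. At the 4-cell stage Smc1b stood at 4.85, 15.4, 5.95 and 4.46 CPM, so that no 4-cell library overlapped with a 2-cell one. The change was -3.42 ± 0.31 (adjusted p = 2.4e-12, limma). It was at 2.08 to 6.03 CPM in 8-cell, 4.41 to 11.6 CPM in morula and 0.793 to 4.20 CPM in blastocyst libraries. The last step, -1.30 ± 0.31 (adjusted p = 0.00060, limma), was -0.97 without the libraries lettered D and then no longer met the size set for a call.

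Stag3, the meiotic STAG subunit, was low in oocytes and rose to the blastocyst. It was at 0.986, 2.04, 0.909 and 0.822 CPM in GV, 0.581 to 0.669 CPM in MII and 0.197 to 0.948 CPM in zygote transcriptomes. In 2-cell libraries it was at 4.56, 2.07, 3.47 and 3.17 CPM, all above MII and zygote. That step was 1.38 ± 0.24 (adjusted p = 6.0e-06, limma) and fell to 0.61 under quantile normalization, below the size set for a call. After 3.92 to 4.39 CPM in 4-cell and 2.65 to 7.08 CPM in 8-cell embryos, morulae held 14.6, 12.01, 12.5 and 10.8 CPM. Every morula library lay above every earlier one, a rise of 1.45 ± 0.24 (adjusted p = 1.6e-05, limma). Blastocysts held 18.4, 11.5, 25.4 and 17.7 CPM, which overlapped with morulae. From GV to blastocyst Stag3 rose by 3.12 ± 0.24 and Smc1b changed by -4.00 ± 0.31 (adjusted p = 2.3e-14 and 3.1e-14, limma).

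Rad21, the mitotic kleisin, rose from GV to MII and from the 2-cell to the 4-cell stage. It was at 32.4, 29.9, 34.8 and 28.4 CPM in GV and at 62.4, 72.0, 58.4 and 82.8 CPM in MII transcriptomes, with no overlap. The rise of 1.10 ± 0.15 (adjusted p = 6.2e-08, limma) was 0.96 without the libraries lettered D, under the size set for a call. Zygotes held 54.7 to 75.2 CPM, overlapping with MII oocytes (change -0.01). The 2-cell libraries held 120, 130, 136 and 162 CPM and the 4-cell libraries 377, 258, 337 and 263 CPM, again without overlap. From zygote to 2-cell the change of 0.999 lay just under the size set, and was 1.00 to 1.06 and called with a pseudocount of 0.1 and without the letters A, C, D, E or F. The step from 2-cell to 4-cell was 1.15 ± 0.15 (adjusted p = 9.0e-09, limma), and 0.83 under quantile normalization and 0.92 in DESeq2, below the size set. From 309 ± 58.2 CPM in 4-cell embryos the mean passed through 250 ± 18.2 and 227 ± 31.95 to 121 ± 20.4 CPM in blastocysts (SD, n = 4). In limma no single step after the 4-cell stage was called. The last one, -0.90, was -1.17 in edgeR (adjusted p = 1.85e-07) and -1.13 in DESeq2 (adjusted p = 6.74e-11), both called, and -1.02 without the libraries lettered A.

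Smc3, the SMC subunit common to the mitotic and meiotic ring, was the most abundant member per length in the GV oocyte. It stood at 266, 238, 228 and 225 CPM in GV and at 563, 538, 443 and 550 CPM in MII transcriptomes. All MII libraries were higher, by 1.12 ± 0.14 (adjusted p = 2.1e-08, limma). In zygotes it was at 285, 303, 297 and 321 CPM, and in 2-cell embryos at 35.0, 27.97, 47.0 and 30.4 CPM. The 2-cell libraries were the lowest of all 32, and the change was -3.09 ± 0.14 (adjusted p = 8.4e-20, limma). At the 4-cell stage Smc3 was back at 240, 221, 190 and 217 CPM, a rise of 2.62 ± 0.14 (adjusted p = 2.0e-18, limma). Later libraries ranged from 115 CPM in a morula to 233 CPM in an 8-cell library, with no further call. A transcript named Gm29763 is 94.5% identical to Smc3 over 616 bases, so reads in that stretch cannot be assigned with certainty.

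Smc1a, the X-linked mitotic counterpart of Smc1b, had overlapping levels in GV, MII and zygote libraries. GV libraries ranged from 67.1 to 88.1 CPM, MII libraries from 58.4 to 85.7 CPM and zygote libraries from 79.9 to 91.1 CPM. The 2-cell libraries, at 61.6, 49.0, 39.3 and 48.5 CPM, lay below the zygote ones, by a change of -0.79 ± 0.17 that was smaller than a call requires in limma. In edgeR it was -1.11 (adjusted p = 2.8e-06) and in DESeq2 -1.18 (adjusted p = 2.56e-10), and both called it. In 4-cell embryos Smc1a was at 221, 166, 190 and 180 CPM, with no overlap with the 2-cell stage, a rise of 1.92 ± 0.17 (adjusted p = 2.1e-12, limma). Means then ran from 174 ± 34.5 CPM at the 8-cell stage to 129 ± 31.5 CPM in morulae and 102 ± 19.6 CPM in blastocysts.

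Stag2, the X-linked STAG subunit, rose steeply between the 2-cell and the 4-cell stage. GV libraries held 32.4 to 42.5 CPM, MII 55.8 to 85.2, zygotes 32.9 to 56.2 and 2-cell embryos 50.9 to 85.3 CPM. The change from GV to MII, 0.89 ± 0.22, was under the size set in limma, while edgeR (1.23, adjusted p = 2.59e-05) and DESeq2 (1.37, adjusted p = 9.38e-08) called it. The 4-cell libraries held 470, 498, 480 and 562 CPM, far above all earlier ones, a rise of 2.89 ± 0.22 (adjusted p = 1.6e-14, limma). It was at 417, 381, 529 and 561 CPM in 8-cell embryos and at 285, 585, 674 and 669 CPM in morulae. In blastocysts it was at 236, 187, 129 and 176 CPM, below every morula library, a change of -1.55 ± 0.22 (adjusted p = 2.6e-07, limma).

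Stag1, the other mitotic STAG subunit, had no call in the 7 transitions in limma and 2 each in edgeR and DESeq2. Its means were 16.9 ± 2.91 CPM in GV, 28.1 ± 6.22 in MII, 43.1 ± 2.23 in zygotes, 49.7 ± 6.22 in 2-cell, 27.0 ± 7.74 in 4-cell, 23.9 ± 7.58 in 8-cell embryos, 38.1 ± 1.93 in morulae and 46.4 ± 4.96 in blastocysts (SD, n = 4). From GV to MII the change was 0.68 ± 0.19 in limma, 1.03 in edgeR (adjusted p = 6.18e-05) and 1.17 in DESeq2 (adjusted p = 5.18e-08), the last pair called. From 2-cell to 4-cell, where Stag2 rose, it was -0.90 ± 0.19 in limma, -1.03 in edgeR (adjusted p = 3.16e-05) and -1.13 in DESeq2 (adjusted p = 4.94e-08), again called in edgeR and DESeq2. From GV to blastocyst Stag1 rose by 1.41 ± 0.19 (adjusted p = 3.3e-08, limma).

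Sgo2a, the centromeric protector, was at 23.9 to 27.1 CPM in GV and at 42.6 to 54.0 CPM in MII transcriptomes, which did not overlap. The change of 0.86 ± 0.18 stayed under the size set for a call in limma, while edgeR (1.20, adjusted p = 2.37e-06) and DESeq2 (1.33, adjusted p = 1.9e-11) called it. Zygotes held 43.8, 41.6, 53.1 and 50.2 CPM and 2-cell embryos 24.4, 13.6, 29.5 and 22.4 CPM, all lower. The change of -1.08 ± 0.18 (adjusted p = 5.1e-06, limma) became -0.87 without the 2-cell library of column letter F, the lowest, and was then under the size set. Later libraries held 25.6 to 55.4 CPM. Of the exonic bases of Sgo2a 35.0% also lie in Kctd18 on the opposite strand, and the library kit does not mark strand. Kctd18 itself was at 4.49 to 11.5 CPM on average in each stage, so reads from the pair cannot be fully told apart.

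A second shugoshin 2 gene in the table, Sgo2b, is no member but shares the name, and it disappeared where Sgo2a persisted. It was at 21.8, 21.0, 20.9 and 25.05 CPM in GV and 52.1 ± 3.70 CPM in MII transcriptomes. It was at 5.97, 3.68, 8.04 and 4.20 CPM in 2-cell embryos and listed at 0 in every 8-cell transcriptome. Sgo2b had no read in the fractions of any stage from 2-cell to blastocyst.

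Espl1, separase, was at 26.8, 26.2, 24.5 and 18.8 CPM in GV and at 78.8, 59.3, 43.8 and 53.3 CPM in MII transcriptomes. The MII libraries were all higher, by 1.23 ± 0.19 (adjusted p = 6.9e-07, limma). It was at 29.5 to 37.8 CPM in zygotes and 32.9, 18.1, 21.7 and 25.8 CPM in 2-cell embryos. In 4-cell embryos it was at 69.6, 117, 87.0 and 53.5 CPM, again without overlap, a rise of 1.67 ± 0.19 (adjusted p = 5.2e-10, limma). From the 8-cell stage on it stayed between 55.7 and 90.6 CPM.

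From GV oocyte to blastocyst, 6 of the 10 members were higher (38.2% of genes) and 1 lower (30.9% of genes), the same 7 in limma, edgeR and DESeq2. The rises were 3.12 for Stag3, 3.10 for Rec8, 2.25 for Stag2, 1.91 for Rad21, 1.77 for Espl1 and 1.41 for Stag1, and the fall was that of Smc1b. Smc3 (-0.56), Smc1a (0.45) and Sgo2a (0.65) did not reach the size set. The median change of the members was 1.59, beside 0.32 for all genes tested.

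Levels of different genes were set side by side only per kilobase of exonic sequence. In GV oocytes the order in CPM per kb was Smc3 (43.2 ± 3.38), Smc1a (12.8 ± 1.68), Smc1b (12.4 ± 1.11), Rad21 (7.42 ± 0.67), Stag2 (4.44 ± 0.57), Sgo2a (3.63 ± 0.18), Espl1 (2.75 ± 0.42), Stag1 (1.44 ± 0.25), Stag3 (0.207 ± 0.099) and Rec8 (0). Among neighbours in that order only Smc1a and Smc1b overlapped between libraries. In 4-cell embryos Rad21 (73.0 ± 13.7) and Stag2 (60.7 ± 5.01) led and overlapped, followed by Smc3 (39.2 ± 3.73) and Smc1a (32.8 ± 4.07), which overlapped too. In blastocysts Smc3 (29.2 ± 3.07), Rad21 (28.7 ± 4.82), Stag2 (22.0 ± 5.27) and Smc1a (17.6 ± 3.39) formed an overlapping chain at the top. There Stag1 (3.94 ± 0.42), Stag3 (3.19 ± 1.00) and Rec8 (2.62 ± 0.46) overlapped in turn and Smc1b (0.606 ± 0.378) came last.

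The ratio of a meiotic subunit to its mitotic counterpart is taken within a library, as log2 of (CPM + 1) per kilobase of each gene. The log2 ratio of Smc1b to Smc1a was -0.03 ± 0.09 in GV (SD, n = 4), -0.46 ± 0.29 in MII and -0.46 ± 0.25 in zygotes. It was 1.24 ± 0.58 in 2-cell embryos, where all 4 libraries were above 0, and -4.10 ± 0.86 in 4-cell embryos. The highest library from the 4-cell stage on was at -2.84. The ratio of Rec8 to Rad21 moved from -4.49 ± 0.13 in GV to -7.25 ± 0.16 in 4-cell embryos, where the mean of Rad21 was highest, and to -3.29 ± 0.22 in blastocysts. Up to the zygote this ratio only mirrors Rad21, since Rec8 was at 0. Stag3 moved against Stag1 from -3.73 ± 0.26 in zygotes to -0.31 ± 0.58 in blastocysts. Against Stag2 its mean was lowest in 4-cell embryos, at -6.07 ± 0.14, and highest in blastocysts, at -2.74 ± 0.70. These ratios are given without a test.

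**Figure D2:**
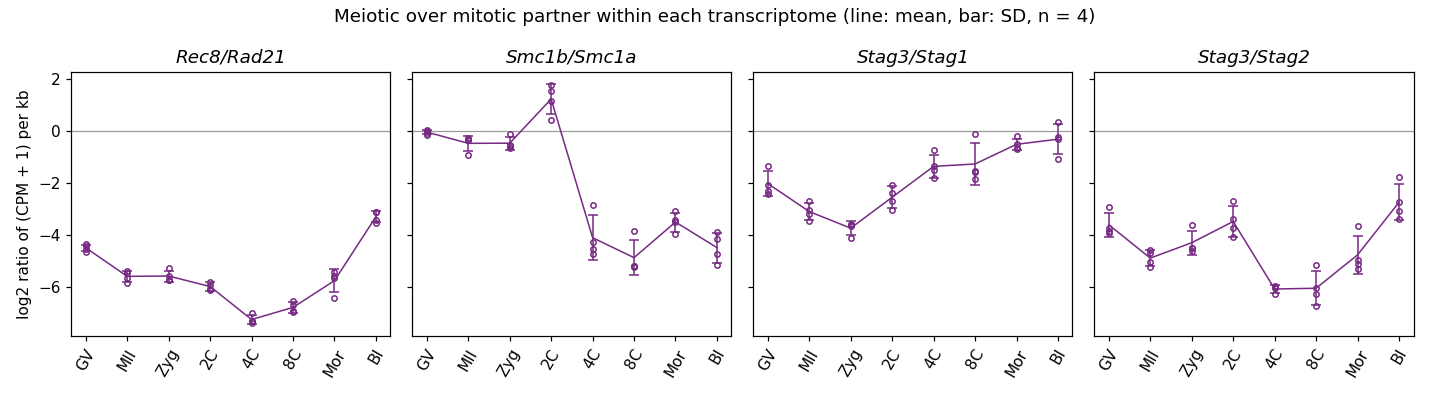
Log2 ratio of (CPM + 1) per kilobase of each meiotic subunit to its mitotic counterpart (y axis) by stage (x axis); circles are transcriptome libraries, lines join means, bars are SD (n = 4) and the grey line marks equal values per kilobase. The Smc1b to Smc1a ratio is above 0 in all 4 2-cell libraries and at -2.84 or below from the 4-cell stage on.

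Genes with the most similar profile over the 32 transcriptomes were looked up for 6 members, among 8003 or 8004 genes with a mean of at least 10 CPM. Pearson's r is descriptive, since the libraries share 8 stages and stage means drive it. Closest to Smc1b were AU015836 (r = 0.97), Nat8f2 (0.96) and Ccser1 (0.96). Their means peaked in 2-cell embryos too, at 413.5, 100.8 and 251.8 CPM. Closest to Rec8 were Scd2 (0.95), Sdc4 (0.95) and Ahnak (0.95), and closest to Stag3 Ccng1, Slc2a8 and 2210409E12Rik (0.96 each). Closest to Smc3 were Arcn1 (0.97), Supt16 (0.95) and Uqcrc2 (0.95). Arcn1 shared its course, with 674.5 CPM in MII, 27.1 CPM in 2-cell and 189.1 CPM in 4-cell embryos. For Rad21 these were Ppm1a, Kdm3a and Ankrd13c (0.97 each), and for Stag2 Zmpste24, Rhoa and Ipo11 (0.97 each).

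In the gradients a transcript that carries more ribosomes sediments further. The labels only number the fractions, so by convention 6 to 10 stand for the heavy and 1 to 5 for the light side. Each fraction is scaled to its own total, so a value is a share of the RNA of that fraction and not an amount. Reads of members were patchy in places: Rec8 had reads in 0 to 3 of the 30 fraction libraries of each stage up to the 8-cell embryo, and Stag3 in 1, Sgo2a in 8 and Smc1b in 11 of the 30 at the 2-cell stage. In MII oocytes 5 members (Espl1, Smc1a, Smc3, Stag1 and, in 29 libraries, Sgo2a) were read in all or nearly all 30 libraries.

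**Figure D3:**
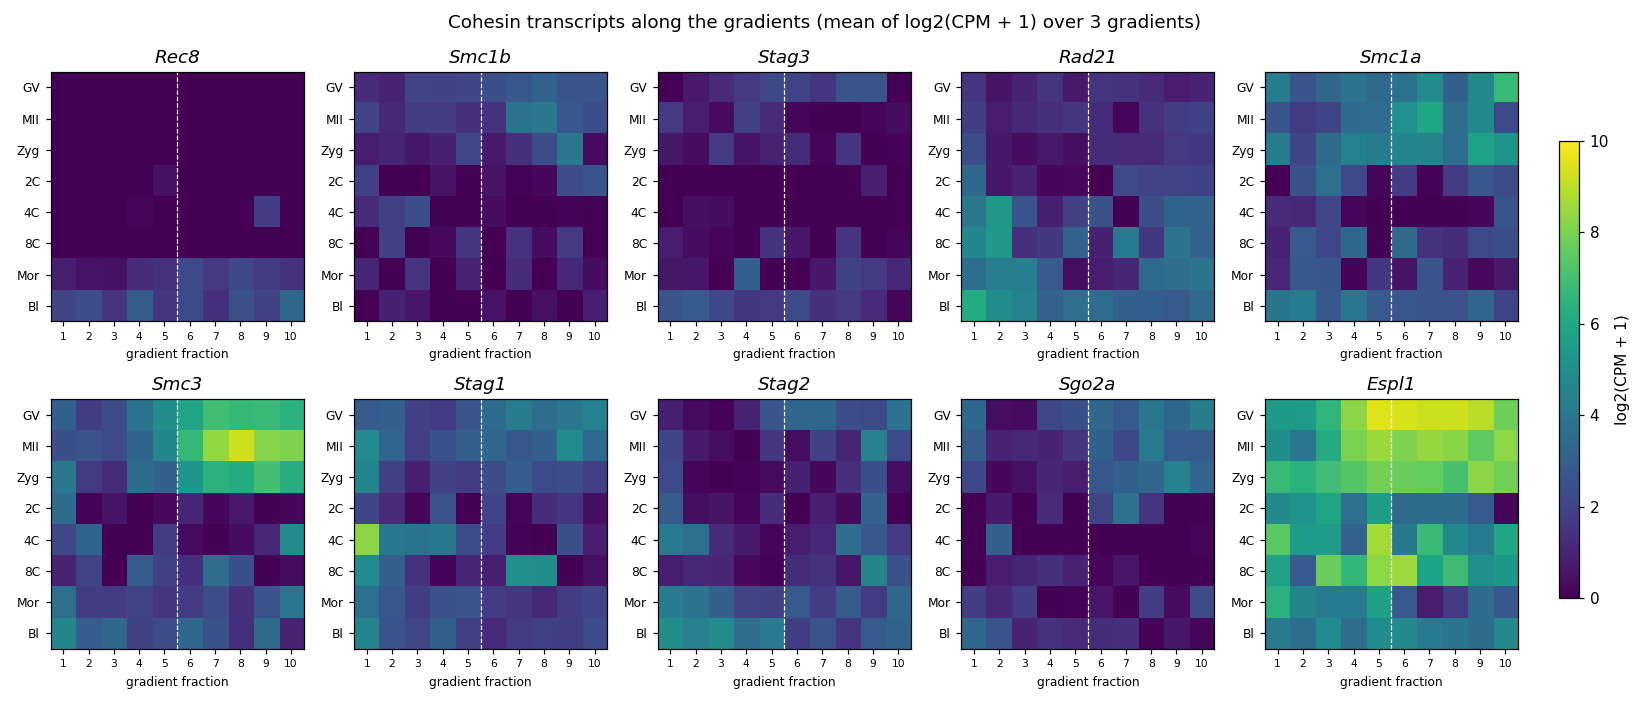
Mean of log2(CPM + 1) over the 3 gradients (colour) for each cohesin gene by fraction (x axis, 1 to 10) and stage (y axis); the dashed line separates light from heavy fractions. Smc3 is bright in fractions 6 to 10 of GV, MII and zygote gradients and dark in the 2-cell gradients, and Espl1 is bright in most fractions of the oocyte gradients.

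Smc3 sat on the heavy side in oocytes and zygotes and nearly vanished from the gradients of 2-cell embryos. In MII gradients its heavy mean was 505, 220 and 308 CPM and its light mean 10.5, 7.37 and 10.1 CPM in gradients A, B and C. The difference of 4.99 ± 0.84 (adjusted p = 0.00016, limma) made Smc3 the 1 of 10 members called heavy in MII (1.71% of 15172 genes). In GV the heavy mean was 102, 110 and 103 CPM against 24.4, 13.1 and 11.6 CPM on the light side, without a call there for any of the 10 (0.0725% of genes in either direction, none of the 10 in edgeR, 2 under 0.05 by unadjusted p in limma). In zygotes Smc3 was at 117, 61.2 and 108 CPM against 6.09, 7.63 and 14.5 CPM, a difference of 3.24 ± 0.84 (adjusted p = 0.021, limma). Sgo2a was heavy there too, at 17.1, 6.41 and 25.1 CPM against 1.30, 1.71 and 1.06 CPM, by 2.70 ± 0.76 (adjusted p = 0.040, limma), which makes 2 of 10 members in zygotes (2.14% of genes). The zygote call of Smc3 was lost without the gradients lettered A (2.83, limma adjusted p = 0.33) or B (3.43, adjusted p = 0.12), with a pseudocount of 0.1 (limma adjusted p = 0.119) and in edgeR (adjusted p = 0.227). That of Sgo2a was lost without A, B or C (limma adjusted p = 0.12, 0.12 and 0.52) and with each gradient as a block (0.061). The Sgo2a call was also lost with a pseudocount of 0.1 (limma adjusted p = 0.191), with fractions 1 and 2 as light (0.146) and in edgeR (0.508). The highest single values of Smc3 were in fraction 8 of MII gradients, at 1166, 405 and 446 CPM.

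In 2-cell gradients the heavy mean of Smc3 was 0.776, 0.916 and 0.147 CPM, below every zygote and every 4-cell gradient but 1, 4-cell gradient C at 0.226 CPM. From zygote to 2-cell it fell by 5.88 ± 0.96 on the heavy side (adjusted p = 0.00015, limma), the 1 member of 10 called lower there (15.7% of 14524 genes). Between GV oocyte and blastocyst it fell by 3.83 ± 0.96 (adjusted p = 0.0026, limma), from 105 ± 4.22 to 7.04 ± 3.70 CPM (SD, n = 3). In the transcriptomes the same comparison was -0.56.

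Within the 4-cell stage, 2 other members were higher on the light than on the heavy side. Smc1b was at 2.24, 30.4 and 9.69 CPM on the light side and 0.0508, 0.185 and 0 CPM on the heavy side. The difference was -3.26 ± 1.02 (adjusted p = 0.022, limma). Its reads lay in only 5 of the 30 4-cell fraction libraries. In gradient A the light level came from fraction 1, at 11.2 CPM in a library where each read counts 5.61 CPM. Stag1 was at 222, 113 and 27.0 CPM on the light and 30.4, 0.633 and 7.05 CPM on the heavy side, a difference of -3.58 ± 0.98 (adjusted p = 0.0090, limma). These were 2 of 10 members called light at the 4-cell stage (12.9% of genes). The light level of Stag1 came mainly from fraction 1, at 751, 454 and 85.4 CPM. These libraries were shallow, with 0.141 M reads in A and 0.347 M in B, yet count as much in the mean as deeper ones. Without the gradients lettered B neither call passed (-2.52, limma adjusted p = 0.29 for Smc1b and -2.31, adjusted p = 0.26 for Stag1), nor with only the 4-cell samples in the fit (limma adjusted p = 0.46 and 0.51), under quantile normalization (0.0984 and 0.0949) or in edgeR (0.0649 and 0.51). That of Smc1b was also lost with the mean of logs over fractions (limma adjusted p = 0.229) and with fractions 1 and 2 as light (0.222).

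In the remaining stages no member passed the test of heavy against light in limma, and in edgeR 2 did in 2-cell gradients and none in 8-cell, morula or blastocyst gradients. By unadjusted p in limma 3, 1, 2 and 0 members were under 0.05 in these 4 stages. The share of genes called there was 18.2% in 2-cell, 9.05% in 8-cell, 5.81% in morula and 2.74% in blastocyst gradients, either direction. Over the 8 stages 3 of 80 member tests were heavy (2.30% of all) and 2 light (4.99%). The members' median difference was 1.10 in GV, 1.19 in MII and 0.93 in zygotes, beside 0.08, -0.06 and -0.04 for all genes, and -0.92 in blastocysts, beside -0.02.

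**Figure D4:**
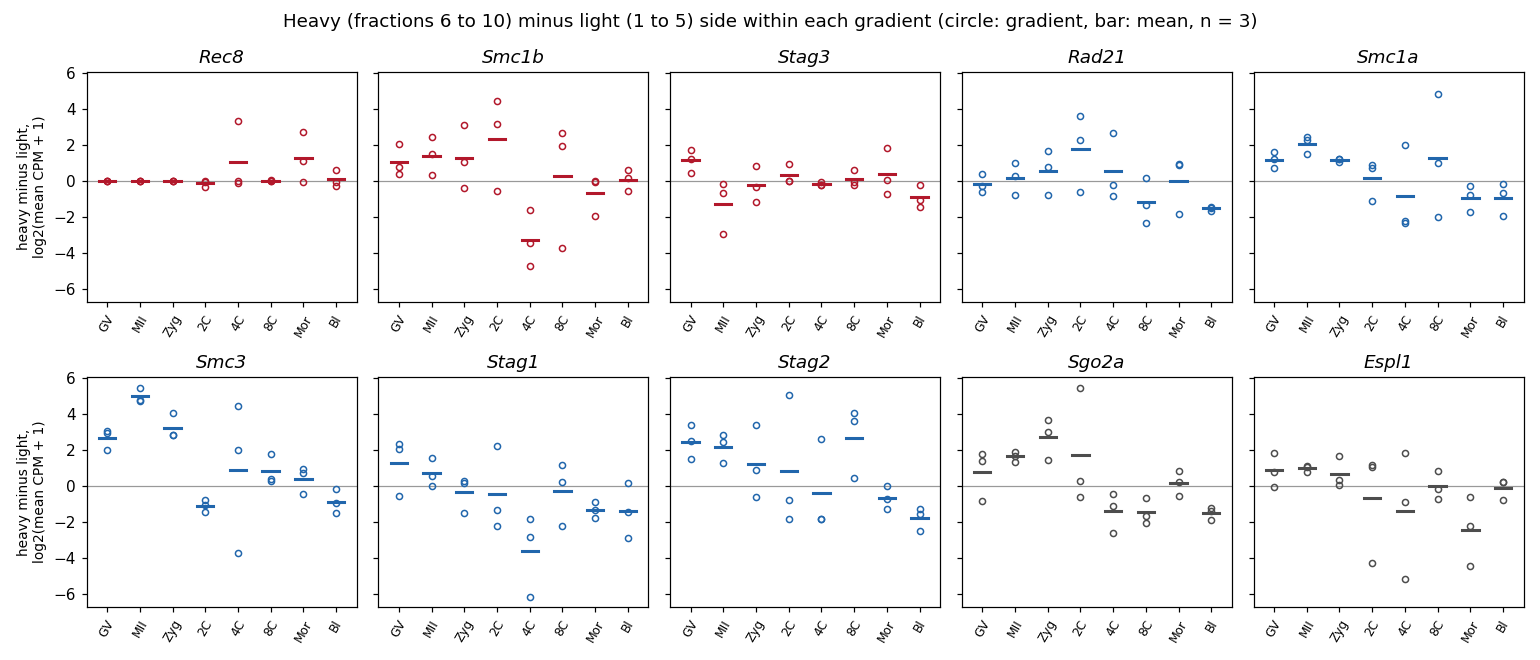
Heavy minus light difference in log2(mean CPM + 1) within a gradient (y axis) by stage (x axis) for each cohesin gene; circles are gradients and bars are means (n = 3). All 3 MII gradients of Smc3 lie well above 0, and all 3 of the 4-cell gradients of Stag1 and of Smc1b lie below 0. Smc1b was read in only 5 of the 30 4-cell fraction libraries.

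Over the 7 transitions each meiotic member had 1 call on the heavy side in limma, each at another step and each lost in some alternatives. Rec8 had 0, 0 and 0.0132 CPM on the heavy side in GV and 0.0358, 0 and 0 CPM in 8-cell gradients. In 4-cell gradients its only heavy reads were in fraction 9 of gradient B, at 45.2 CPM. That value was above every single morula and blastocyst fraction. The heavy side of Rec8 reached 5.65, 6.99 and 4.73 CPM in morula and 6.04, 3.90 and 6.88 CPM in blastocyst gradients. The rise from 8-cell to morula, 2.73 ± 0.56 (adjusted p = 0.0031, limma), was the 1 of 10 called higher there (5.42% of genes). It was not called without the gradients lettered A or C (limma adjusted p = 0.057 and 0.069) or in edgeR (adjusted p = 0.114). From GV to blastocyst Rec8 rose by 2.69 ± 0.56 (adjusted p = 0.00051, limma). With GV values at or near 0 the size of that rise depends on the settings, at 2.29 to 9.98 over the alternatives. Smc1b was at 44.4, 20.8 and 0.135 CPM in 2-cell and at 0.0508, 0.185 and 0 CPM in 4-cell heavy fractions, a change of -3.27 ± 1.03 (adjusted p = 0.016, limma), not called without A or B (limma adjusted p = 0.20 and 0.19), with only the groups compared (0.282) or with the mean of logs (0.137). Stag3 was at 3.25, 15.2 and 2.19 CPM in GV and at 0.0872, 0.0958 and 0.184 CPM in MII heavy fractions, with no overlap, the 1 of 10 called lower there (3.22% of genes). That change of -2.43 ± 0.63 (adjusted p = 0.029, limma) was not called without A, B or C (limma adjusted p = 0.17, 0.11 and 0.13), with only the groups compared (0.0659), with fractions 7 to 10 as heavy (0.0753), under quantile normalization (0.196) or in edgeR (0.338). From GV to blastocyst neither Smc1b nor Stag3 was called in the main limma fit. There Smc1b changed by -2.48 ± 1.03 (limma adjusted p = 0.055). It was called with only the groups compared (limma adjusted p = 0.0016), with the gradient letter as a block (0.047) and with the mean of logs (0.00049).

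Among the other members, 2-cell to 4-cell brought a rise of Smc3 on the heavy side (1 of 10, 15.6% of genes) and falls of Smc1b and Sgo2a (2 of 10, 22.3%). Smc3 went to 23.3, 41.7 and 0.226 CPM, a rise of 2.78 ± 0.96 (adjusted p = 0.026, limma). Sgo2a went from 43.2, 3.24 and 0.0921 CPM to 0.0561, 0 and 0 CPM, a change of -2.53 ± 0.84 (adjusted p = 0.021, limma). Neither was called without A (limma adjusted p = 0.24 and 0.27) or without B (0.26 and 0.14), with only the groups compared (0.357 and 0.337) or with the mean of logs (0.256 and 0.0732). Espl1 went from 150, 107 and 217 CPM in 8-cell to 1.89, 9.48 and 24.7 CPM in morula heavy fractions, which did not overlap, the 1 of 10 called lower (2.56%). Its change of -4.05 ± 1.25 had an adjusted p of 0.049 and was not called without A, B or C (0.14, 0.25 and 0.092) or with the gradient letter as a block (0.052), nor with a pseudocount of 0.1 (0.0531), without the low-value filter (0.0583), with only the groups compared (0.0621), with fractions 7 to 10 as heavy (0.101) or in edgeR (0.0682).

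No member was called on the heavy side from MII to zygote (1.49% of genes in either direction), from 4-cell to 8-cell (6.54%) or from morula to blastocyst (0.0757%) in limma, nor in edgeR, while 0, 1 and 0 were under 0.05 by unadjusted p. Over the 7 transitions 2 of 70 heavy member tests were higher (4.77% of all) and 5 lower (6.48%). From GV to blastocyst 2 of 10 were higher, Rec8 and Rad21 (18.8% of genes), and 4 lower, Smc3, Sgo2a, Smc1a and Espl1 (27.2%). Rad21 rose from 0.792, 1.45 and 2.80 CPM to 7.05, 8.99 and 16.6 CPM, by 2.14 ± 0.85 (adjusted p = 0.044, limma), not called without A, B or C (0.081, 0.078 and 0.21), with the block (0.051) or with fractions 7 to 10 as heavy (0.0614). Smc1a fell by 2.60 ± 0.96 (limma adjusted p = 0.032), Sgo2a by 2.95 ± 0.84 (adjusted p = 0.0067) and Espl1 by 4.61 ± 1.25 (adjusted p = 0.0048). Without the gradients lettered B none of these 3 passed (0.24, 0.11 and 0.052), and Smc1a did not pass without C either (0.052), with a pseudocount of 0.1 (0.146) or with fractions 7 to 10 as heavy (0.0545). In edgeR Sgo2a and Smc1a were not called (adjusted p = 0.251 and 0.252).

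Espl1 had far higher CPM in the oocyte fractions than in the oocyte transcriptomes. In GV its mean over all 10 fractions was 449, 413 and 402 CPM in gradients A, B and C, while the 4 transcriptomes held 18.8 to 26.8 CPM. The difference of 4.07 in log2 lay at percentile 98.9 of 12567 genes, whose median was 0.09. It shrank to 2.03 in MII (242 ± 100.6 CPM in fractions, percentile 76.8) and 2.54 in zygotes (198 ± 29.4 CPM, percentile 81.1). In blastocysts it was -1.83 (22.9 ± 8.03 CPM, percentile 17.2). Within GV gradients the values of fractions 5 to 9 ranged from 264 to 976 CPM, and those of fraction 2 from 23.9 to 84.2 CPM.

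Rad21 lay at the other end. In GV its fraction mean was 0.988, 1.16 and 3.81 CPM against 28.4 to 34.8 CPM in transcriptomes, a difference of -3.44 at percentile 0.748. In MII the difference was -4.49, at percentile 0.173, and in blastocysts -2.41, at percentile 9.13. Stag2 was at -5.52 (percentile 0.0803) in 8-cell and -5.49 (percentile 0.0241) in morula samples. Smc1b, at 50.2 ± 4.51 CPM in GV transcriptomes, averaged 5.23 ± 1.62 CPM over the GV fractions, at percentile 1.60. Each library is scaled to its own total, so these are differences in share, and they have no test.

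**Figure D5:**
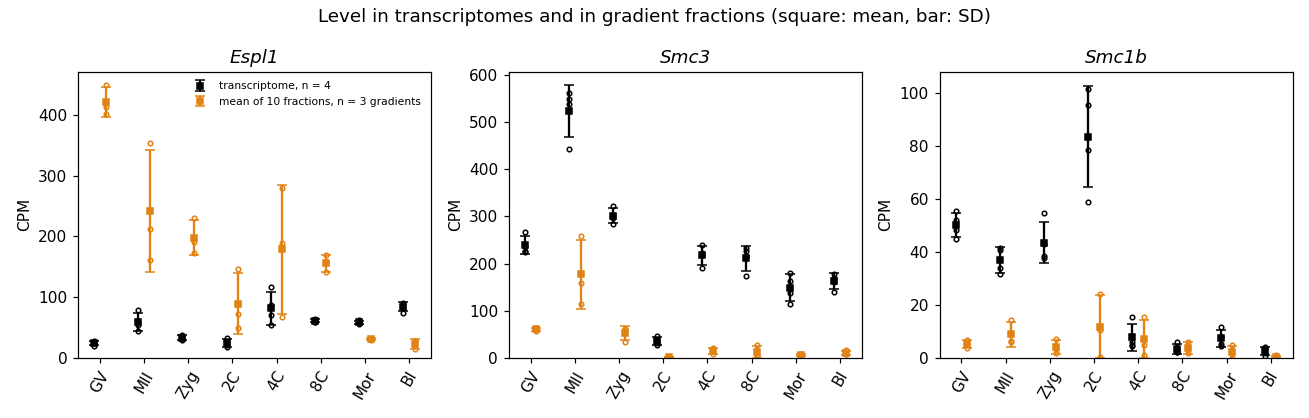
CPM (y axis, from 0) of Espl1, Smc3 and Smc1b in transcriptomes (black, n = 4 libraries) and averaged over the 10 fractions of a gradient (orange, n = 3 gradients) by stage (x axis); circles are samples, squares means and bars SD. Espl1 fractions lie at 402 to 449 CPM in GV, above its transcriptomes, while Smc1b fractions lie below its transcriptomes in GV.

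Where the change on the heavy side was set against that in the transcriptome, 2 of 70 interaction tests were higher (5.67% of all) and 7 lower (7.51%). Each of the 9 was lost in at least 1 alternative. The fit gave each gene 1 spread over heavy means and transcriptomes together, although heavy means varied more. For Smc3 the interaction SE was thus 0.82, below the 0.96 of its heavy change alone. Interaction SEs and p-values are therefore too small, and these calls are tentative. From zygote to 2-cell Smc3 (-2.79 ± 0.82, adjusted p = 0.0084, limma) and Stag3 (-2.06 ± 0.61, adjusted p = 0.0086) fell beyond their transcriptome change (2 of 10, 26.0% of genes). Neither passed without the samples lettered A (limma adjusted p = 0.063 and 0.18) or under quantile normalization (0.42 and 0.46), nor Stag3 in edgeR (0.165). From GV to MII it was Stag3 (-2.03 ± 0.61, limma adjusted p = 0.025, 1 of 10, 1.27% of genes), not called without A, B or D (0.064, 0.053 and 0.105), under quantile normalization (0.0609), with fractions 7 to 10 as heavy (0.0727), with the mean of logs (0.0769) or in edgeR (0.0571). From 2-cell to 4-cell Sgo2a (-3.50 ± 0.75, limma adjusted p = 0.00029) and Smc1a (-3.52 ± 0.83, adjusted p = 0.00093) fell on the heavy side relative to the transcriptome (2 of 10, 18.0%). Both were lost with just those 2 stages in the fit (limma adjusted p = 0.095 and 0.097), where only their own spread counts, and in no other alternative. At the 4-cell stage Sgo2a had reads in only 4 and Smc1a in 8 of the 30 fraction libraries.

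From 4-cell to 8-cell Smc1a rose relative to its transcriptome, by 2.96 ± 0.83 (adjusted p = 0.012, limma, 1 of 10, 12.0% of genes), not called without B or D (0.088 and 0.055), with only the groups compared (0.121) or with fractions 7 to 10 as heavy (0.222). From 8-cell to morula Rec8 rose by 1.85 ± 0.52 (limma adjusted p = 0.021, 1 of 10, 3.97%), not called without A, C or D (0.077, 0.074 and 0.15), under quantile normalization (0.0568), with fractions 7 to 10 as heavy (0.0536) or, at 0.95 and under the size set, with the mean of logs. Stag1 (-3.06 ± 0.93, limma adjusted p = 0.035) and Espl1 (-4.00 ± 1.12, adjusted p = 0.019) fell relative to their transcriptomes (2 of 10, 2.48%). Stag1 was not called without A, B or D (0.17, 0.11 and 0.13), with a pseudocount of 0.1 (0.101), with the mean of logs (0.228) or in edgeR (0.0766), nor Espl1 without B or D (0.063 and 0.080) or with fractions 7 to 10 as heavy (0.053). From MII to zygote and from morula to blastocyst no member was called in limma (2.28% and 2.20% of genes in either direction) or edgeR, while 1 and 2 were under 0.05 by unadjusted p.

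The regulators of cohesin were followed as a list of 15 genes, of which 14 were in the table. From GV to MII 3 of 14 rose (9.11% of all genes) and 2 fell (25.3%), with a median change of 0.46 beside -0.11 for all genes. Pttg1, securin, the inhibitor of separase, rose by 1.32 ± 0.13 and Wapl, the release factor, by 1.23 ± 0.14. Cdca5, sororin, which counters Wapl, fell by 1.90 ± 0.15, and Meikin, the meiosis I kinetochore factor, by 2.09 ± 0.29. From 2-cell to 4-cell 2 of 14 rose (31.8% of all genes), among them the cohesin-bound factor Pds5a (from 27.3 ± 6.31 to 126 ± 20.4 CPM), and 5 fell (32.9%), among them Pttg1, the acetyltransferase Esco1 and the deacetylase Hdac8. From GV oocyte to blastocyst 2 of 14 rose (38.2% of all genes) and 7 fell (30.9%), and the median change was -1.21 beside 0.32 for all genes.

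Condensin and Smc5/6, the related SMC complexes, gave 13 listed genes. From zygote to 2-cell 5 of 13 fell (8.71% of all genes) and 1 rose (25.2%), with a median of -0.68 beside 0.37 for all genes. From 2-cell to 4-cell 8 of 13 rose (31.8% of all genes) and 3 fell (32.9%), with a median of 1.13 beside 0.02. The condensin ATPase Smc4 fell by 2.36 ± 0.18 and its partners Ncaph and Ncapg by 2.41 ± 0.17 and 2.29 ± 0.27 in the first of these steps. Ncapd3 fell there by 1.54 ± 0.16. In the second, Smc5 rose by 3.28 ± 0.19, Ncaph2 by 3 ± 0.21, Smc2 by 2.45 ± 0.15 and Ncapd2 by 1.93 ± 0.25.

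The list of the meiotic chromosome axis and synapsis, which also held recombination genes and Mael, had 16 genes, of which 15 were in the table. Most of these 15 fell at the 2-cell to 4-cell step, where Smc1b fell too. There 9 of 15 fell (32.9% of all genes) and 4 rose (31.8%), with a median of -1.60 beside 0.02 for all genes. The central element gene Tex12 fell by 4.58 ± 0.31, Tex11 by 3.87 ± 0.27, the recombination gene Msh4 by 3.51 ± 0.21 and Mael by 3.33 ± 0.28. From 8-cell to morula 5 of 15 rose (8.18% of all genes), Mael, Syce1, Tex12 and Mlh3 leading. From morula to blastocyst 8 of 15 fell (7.97% of all genes) and 1 rose (18.8%), with a median of -1.12 beside 0.16.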

How the data were processed

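All 272 libraries were sequenced, as 150-base read pairs after full-length cDNA amplification, per the labels' protocols. Per the submitters' processing notes, reads went through FastQC, Trim Galore 0.6.7, HISAT2 2.2.1, featureCounts 2.0.1 and edgeR, with the mouse build GRCm39. The authors deposited 1 table of CPM (counts scaled to the library total). The 9 deposited columns whose sums exceed the CPM total, where symbols are repeated, were treated as a plain signal in the same scale. After 76 groups of repeated symbols were reduced to 1 row each, 15771 symbols remained, and none of the genes named here was among the repeats. Every value was a whole number of reads, within 0.05 reads, in all 272 libraries. A single 2-cell fraction library, which met this too, stayed out of the count models.

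The main test was limma 3.58.1 (R 4.3.3, eBayes with trend) on log2(CPM + 1), over all genes with at least 1 CPM in 4 transcriptomes or 3 gradient means, with Benjamini-Hochberg adjustment within each contrast. A call needed an adjusted p under 0.05 and a log2 change of at least 1 in size. Alternatives included edgeR 4.0.16 and DESeq2 1.42.0 on the recovered reads, and they were run for the 10 members and not for the other lists. The tests were tried on simulated data. The members and lists were chosen with earlier results of these data known. All members are named, then up to 4 called genes of each list with the largest change, and the 3 genes with the highest r to each of 6 members. Levels per length used exonic lengths from GENCODE M21 (GRCm38) in place of the planned coding lengths. Overlaps and near copies of members were searched with BLAST 2.17.0.

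Letters pair samples by source only between the sides of 1 gradient. The main test of heavy against light did not use this pairing. Only its alternative with each gradient as a block did. Heavy and light means of a gradient correlated with a median r of 0.0973 over 24 pairs (11 above 0.1), in deviations from the stage means. Same-letter samples of different stages did not deviate together (median r of 0.0163 over 84 transcriptome pairs). Replicate libraries differed beyond sampling noise in all 288 pairs (lowest chi-square per degree of freedom 2.55).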

Additional observations from a re-analysis of the deposited data

Results flagged for a closer look

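In 3 of 77 groups of 4 transcriptomes a member had a library far from the other 3 by Dixon's criterion, where chance flags about 1 in 20. Smc1b was at 15.43 CPM in 4-cell library B and at 4.455 to 5.948 CPM in the others. Stag3 was at 2.037 CPM in GV library B and at 0.8224 to 0.9859 CPM in the others. Smc1a was at 82.08 CPM in morula library A and at 140 to 151.3 CPM in the others. Morula library A also had the lowest Stag2 (285 CPM) and Smc3 (115 CPM) of its stage and the highest share of 18S reads (3.79%), and the part of that share in these levels was not tested.

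For 9 comparisons the heavy fractions and the transcriptome changed differently by the interaction test in limma, whose SEs and p-values are too small as described in the results. The difference (heavy change minus transcriptome change, log2) was -2.03 for Stag3 from GV to MII, -2.79 for Smc3 and -2.06 for Stag3 from zygote to 2-cell, -3.5 for Sgo2a and -3.52 for Smc1a from 2-cell to 4-cell, 2.96 for Smc1a from 4-cell to 8-cell, and 1.85 for Rec8, -3.06 for Stag1 and -4 for Espl1 from 8-cell to morula. Gradients of the 2-cell and 4-cell stages varied widely: in heavy 2-cell fractions Sgo2a was at 43.2, 3.24 and 0.0921 CPM and Smc1a at 0.0485, 10.2 and 35.2 CPM in gradients A, B and C.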

How the results depend on the processing

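Of the 50 member calls 22 held in every alternative: 18 of 23 in transcriptomes, 3 of 13 on the heavy side, 1 of 5 of heavy against light and 0 of 9 interactions, and 0 of the 50 reversed. On the heavy side these were Smc3 from zygote to 2-cell and Rec8 and Smc3 from GV to blastocyst, and of heavy against light it was Smc3 in MII. The calls of Rec8 from GV to blastocyst start from GV values at or near 0, so their holding does not show that Rec8 was absent in GV. In transcriptomes over the 7 transitions, edgeR and DESeq2 gave 8 falls each, beside 5, and from GV to MII 6 rises each, beside 3. From GV to MII the median change of all genes moved from -0.11 to 0.16 with quantile normalization, which also called 6 rises, and from zygote to 2-cell from 0.37 to -0.08. Heavy rises (2) became 4 with quantile normalization and 1 with the mean of logs over fractions, and 1 to 2 when leaving out a letter. In edgeR they numbered 2 as well, but were Rec8 and Smc3 from 2-cell to 4-cell, and the rise of Rec8 from 8-cell to morula was lost. Heavy falls (5) became 1 with a fit to only the groups compared, 3 in edgeR, 3 with fractions 7 to 10 as heavy, and 1 to 5 when leaving out a letter. From GV to blastocyst heavy rises (2) became 1 with fractions 7 to 10, 1 with the replicate block and 1 to 2 without a letter, and heavy falls (4) became 2 in edgeR and 1 to 4 without a letter. Calls of heavy over light (3) became 1 with a pseudocount of 0.1, 5 with quantile normalization, 5 with only the groups compared, 6 with the mean of logs, 5 with fractions 1 and 2 as light, and 1 to 5 without a letter. Calls of light over heavy (2) became 1 with quantile normalization, 1 with only the groups compared, 0 in edgeR, 1 with the mean of logs, 1 with fractions 1 and 2 as light, and 0 to 2 without a letter. Interaction rises (2) became 8 in edgeR, 0 with fractions 7 to 10, and 0 to 5 without a letter. Interaction falls (7) became 11 with the mean of logs, and 4 to 10 without a letter.

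With the replicate block, calls on interactions outside the 2-cell stage (2 rises) became 4. The block could not be fitted to 2-cell transcriptomes, whose columns carry other letters than the labels. Apart from the changes named here and in the results, the block ended no call. The Smc3 interaction, not called, turned to -1.72 (adjusted p = 0.0037, limma) from 2-cell to 4-cell with the mean of logs over fractions, from 0.16. From 4-cell to 8-cell it ranged from -2.39 without letter C (adjusted p = 0.00045, limma), a reversal, to 1.83 without B, from 0.15. The cause was not tested. With 3 gradients a stage and fractions as shallow as 0.0102 M reads, low members such as Rec8 and Stag3 often had no read in a fraction, and absence there cannot be told from low level.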
